A study of Mus musculus with 4 samples.

Results

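Conventional type 2 dendritic cells (cDC2) were selected from single-cell RNA sequencing of mouse liver, and 548 of the 31290 barcodes that passed the cell filter met the definition. A barcode was counted as cDC2 when it held at least 2 unique molecular identifiers (UMIs, each one captured transcript) of Cd209a and at least 1 UMI of Flt3, Clec10a or H2-Oa. It also had to hold no UMI of Xcr1 or Clec9a, which mark cDC1, none of the T cell genes Cd3d, Cd3e and Cd3g, none of the B cell genes Cd79a and Cd79b and none of the pDC gene Siglech. At most 5 UMIs of the macrophage genes C1qa, C1qb and C1qc were allowed, and barcodes with at least 2 UMIs of Fscn1 and at least 1 of Ccr7, which mark mature dendritic cells, were left out. The cells were found in all 4 libraries, with 34 in NCD replicate 1, 140 in HFD replicate 1, 195 in HFD replicate 2 and 179 in JQF replicate 1. The definition used measured UMIs, so the levels of its own genes are given as a description, without a test.

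Conventional dendritic cells take up antigen in tissue and present it to T cells. cDC2 present mainly on MHC class II to CD4 T cells, carry C-type lectins such as CD209a and CD301, and depend on Flt3 signalling and on the transcription factors IRF4 and KLF4 for their development. They sense microbial and tissue signals through Toll-like receptors, and on activation they raise the costimulatory molecules CD80 and CD86 and release cytokines and chemokines. In the liver they lie mostly around the portal tracts.

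The study compared livers of male C57BL/6J mice on a normal chow diet (NCD, 1 library), on a high-fat diet (HFD, 2 libraries) and on the same high-fat diet with oral Jiangtang Qingre Formula (JQF, 1 library), a mixture of herbal granules with a water decoction of red yeast rice. The NCD and HFD mice received distilled water in its place, and no group carried a transgene or other allele. Livers were perfused and digested, and red cells were lysed before droplet capture, so the high-fat diet served as the model of fatty liver and the NCD mouse as its control. NCD and JQF are each represented by a single library, so every comparison rests on the spread between the HFD replicates and cannot separate a diet or treatment from the individual mouse. The labels name hematopoietic stem cell as the cell line and immune cell as the cell type, whereas the protocol describes digested liver, and endothelial and hepatocyte RNA was found.

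The NCD library stood apart in its cell makeup. More than 2 UMIs of the endothelial genes Clec4g, Stab2, Kdr, Oit3 and Ptprb were found in 69.1% of its kept barcodes, against 3.02% and 16.2% in the HFD replicates and 8.36% in JQF replicate 1. Among the cDC2 themselves, 6 of the 34 NCD cells passed that limit, against 1 of 140, 5 of 195 and 0 of 179. Median UMIs per cDC2 were 23811 in NCD replicate 1, 14896 and 14487 in the HFD replicates and 15947 in JQF replicate 1, and the summed cDC2 counts were 813993, 2164639, 2917543 and 3090223 UMIs. The share of UMIs from ribosomal protein genes was 11.5% in NCD replicate 1, 17.1% and 17.4% in the HFD replicates and 19.7% in JQF replicate 1, while mitochondrial shares lay between 2.05% and 2.37%. No cDC2 barcode was shared between libraries. Free RNA, that is RNA outside cells, was estimated at 6.88% of cDC2 UMIs in NCD replicate 1, 0.710% and 3.997% in the HFD replicates and 2.65% in JQF replicate 1. The 9 hepatocyte markers, none at 0 in every library, summed to 278, 38.8, 183 and 226 CPM in the same order. Of these, 4 were called lower in HFD than in NCD by edgeR and 0 by DESeq2, and 2 by edgeR without endothelial-positive cells. The part of depth, ribosomal share, endothelial, hepatocyte and free RNA in the NCD results was not tested.

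Of the 5 marker genes of the label, 4 were used by the definition, so their levels only describe the selected cells. Cd209a was at 430.0, 546, 701 and 812 CPM in NCD replicate 1, the HFD replicates and JQF replicate 1 in turn, where CPM are UMIs scaled to 1000000 summed UMIs per library. In the same order, Clec10a, which encodes the lectin CD301a, was at 89.7, 157, 204 and 239 CPM, Flt3 at 243, 280.0, 260.5 and 199 CPM and H2-Oa, part of the peptide-exchange regulator H2-O, at 143, 183, 158 and 133 CPM. Rtn1, a reticulon of the endoplasmic reticulum that the definition did not use, was at 514, 286, 203 and 186 CPM. Rtn1 was higher in cDC2 than in any other gated class in every library, and the next highest were cDC1 at 67.5 to 143 CPM in 3 libraries and pDC at 81.4 CPM in HFD replicate 1. At least 1 Rtn1 UMI was found in 71.0% to 82.4% of cDC2 in the 4 libraries. After each cDC2 was thinned to 3000 UMIs, the share was 66.7% in NCD replicate 1, 46.8% and 40.5% in the HFD replicates and 32.8% in JQF replicate 1. Rtn1 was called lower in HFD than in NCD, with log2 fold changes of -1.16 by edgeR and -1.21 by DESeq2. It turned to 0.14 when the definition was applied to the thinned counts.

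Some genes outside the definition differed between cDC2 and cDC1. Sirpa, an inhibitory receptor of cDC2 and macrophages, lay at 178 to 247 CPM in cDC2 and 4.44 to 8.74 CPM in cDC1 gated by Xcr1 and Flt3. Itgam, which encodes CD11b, lay at 124 to 188 CPM in cDC2 and 2.52 to 3.71 CPM in those cDC1. Irf4 was at 39.7 to 52.8 CPM in cDC2 and 4.29 to 8.48 CPM in cDC1, whereas Irf8, the cDC1 and pDC regulator, was at 52.4 to 118 CPM in cDC2 and 1258.5 to 1589.6 CPM in cDC1. Zbtb46, the transcription factor of conventional dendritic cells, was at 81.9 to 133 CPM in cDC2 and 80.1 to 155 CPM in cDC1, so these classes overlapped. Class II genes were high in both, with H2-Aa at 6010 to 8395 CPM in cDC2 and 5928 to 7286 CPM in cDC1. Other classes also held some of these genes. Sirpa and Itgam were at 425 to 560 and 174 to 223 CPM in Ly6c2 monocytes, and Irf4 was at 92.4 to 286 CPM in pDC. These levels across classes are a description, since the gates themselves were set on measured genes.

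Some genes of other cells were also present. Fcgr1, the CD64 receptor of monocytes and macrophages, was at 4.91, 29.6, 42.8 and 21.03 CPM, against 62.5, 104, 122 and 54.9 CPM in Ly6c2 monocytes. Cd209a was also detected in pDC at 130 to 296 CPM, and it was at 0 in the Ly6c2 monocytes and the cDC1, which were gated without it. Esam, Clec4a4 and Cd4, which mark a Notch-dependent cDC2 subset of spleen, were at most 17.2, 4.80 and 4.91 CPM in any library. Of the 8 markers of monocytes, none was at 0 in every library and their sum was 720 CPM in NCD replicate 1, 1478 and 2010 CPM in the HFD replicates and 1092 CPM in JQF replicate 1. The 11 macrophage markers, of which the definition capped 3, summed to 165, 35.6, 110 and 46.9 CPM in the same order.

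Cells next to the Cd209a threshold were counted on both sides of it. Cells with exactly 2 Cd209a UMIs that met all other conditions numbered 3, 18, 24 and 24 in NCD replicate 1, HFD replicate 1, HFD replicate 2 and JQF replicate 1, and cells with exactly 1 numbered 3, 32, 32 and 21. Just inside, H2-Aa stood at 5913 to 8789 CPM and just outside at 4626 to 7527 CPM. Cells without any Cd209a UMI stood at 2666 to 3733 CPM of H2-Aa.

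The share of cDC2 among kept barcodes was 0.569% (exact 95% interval 0.394 to 0.794) in NCD replicate 1, 2.15% (1.81 to 2.53) in HFD replicate 1, 1.90% (1.65 to 2.18) in HFD replicate 2 and 2.10% (1.80 to 2.42) in JQF replicate 1. The HFD mean was 2.02% ± 0.175 (SD, n = 2), which is 3.56-fold the NCD value, and the JQF value lay between the HFD replicates. The intervals cover counting error only, and no test between groups was made because the definition sets the count. Among barcodes with at least 1 UMI of the leukocyte gene Ptprc the shares were 1.44%, 2.35%, 2.27% and 2.40%, so the HFD mean was 1.60-fold the NCD value. Among gated dendritic cells they were 3.77%, 20.0%, 19.2% and 21.8%, and the HFD mean was 5.21-fold the NCD value. With endothelial-positive barcodes left out, the shares of gated dendritic cells were 22.8%, 20.5%, 22.0% and 23.8%, and the HFD mean was 0.934 times the NCD value. The ratio of HFD to NCD thus differed with the denominator and with whether endothelial-positive barcodes were kept.

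**Figure D1:**
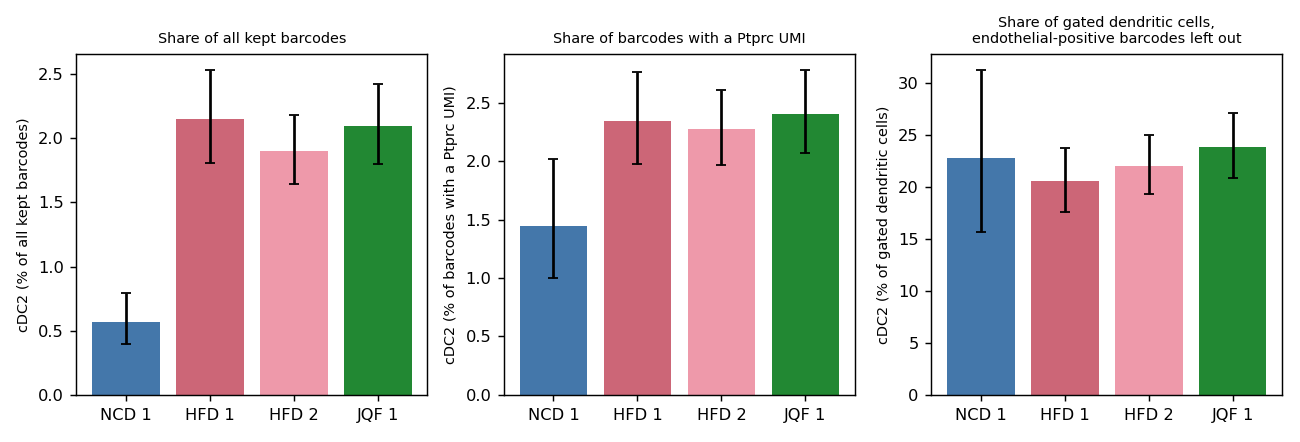
Share of cDC2 in each library (percent), among all kept barcodes, among barcodes with a Ptprc UMI and among gated dendritic cells without endothelial-positive barcodes; bars are single libraries and error bars exact 95% binomial intervals. The NCD bar is the lowest in the first panel at 0.569% and lies within the other libraries' intervals in the third at 22.8%.

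Cell-to-cell differences were compared after each cDC2, selected on its full counts, was thinned to 3000 UMIs, which left 33, 139, 195 and 177 cells. A UMI of Mki67, Top2a or Birc5, genes of dividing cells, was then found in 6.06% of NCD cDC2 (interval 0.743 to 20.2), in 15.1% (9.60 to 22.2) and 17.4% (12.4 to 23.5) of the HFD replicates and in 15.3% (10.3 to 21.4) of JQF cells. Without thinning the shares were 41.2%, 26.4%, 30.8% and 35.8%, an order that the greater depth of the NCD cells can set, so no order is read from them. Mgl2, which encodes CD301b, was found in 15.2%, 9.35%, 15.9% and 22.6% of thinned cDC2, and in 0% to 0.165% of T cells, which should lack it. The T cell shares came from thinned cells of the same libraries, whose median UMIs were 6299.5 to 10901 before thinning. Sirpa was seen in 42.4%, 47.5%, 46.7% and 35.6% of thinned cDC2, against 1.48% to 3.54% of T cells. Cd86 was seen in 97.0% of NCD cDC2 (84.2 to 99.9), 35.3% (27.3 to 43.8) and 48.7% (41.5 to 56.0) of HFD and 57.6% (49.99 to 65.0) of JQF cells, and in 6.30% to 10.9% of T cells. These intervals cover counting error over the cells of single libraries, and no order between conditions is read from them.

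**Figure D2:**
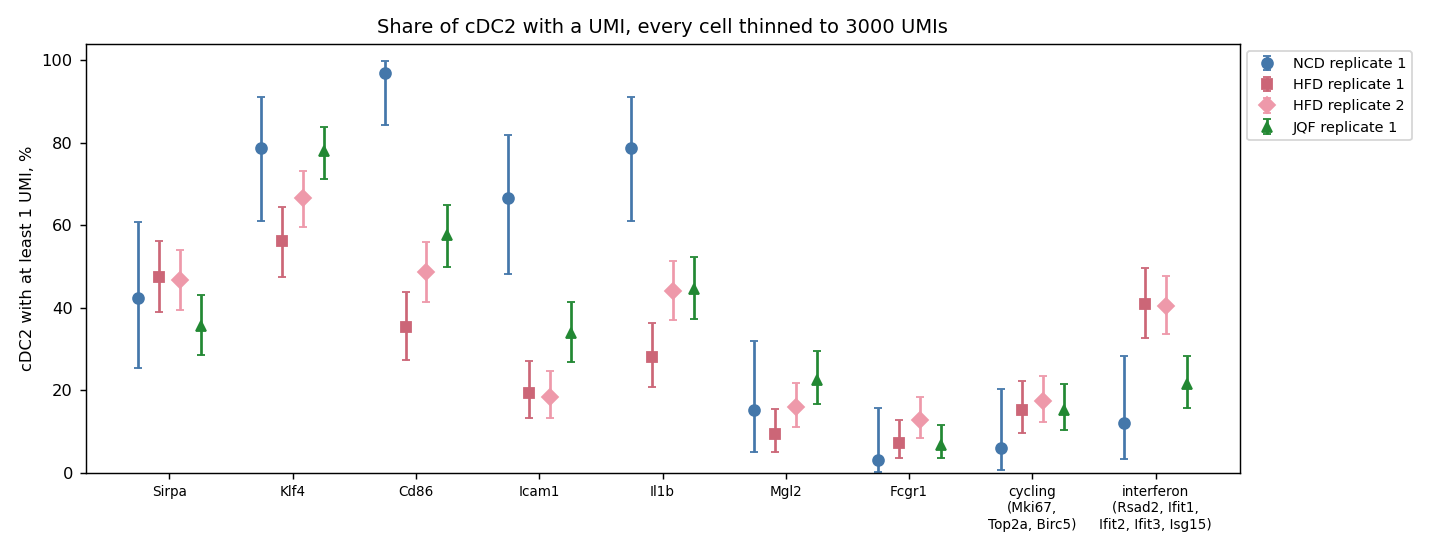
Percent of cDC2 with at least 1 UMI of each gene or gene set after thinning every cell to 3000 UMIs, one point per library with its exact 95% interval. Cd86 is found in 97.0% of NCD cells and in 35.3% to 57.6% of the cells of the other libraries, and the interferon set in 41.0% and 40.5% of HFD cells.

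The first comparison asked how the transcriptome of cDC2 differed between the high-fat and the chow diet. With summed UMIs and edgeR's quasi-likelihood test over 11175 genes, 2495 genes passed an adjusted p of 0.05, which is 22.3% of those tested. Of these, 1000 were higher in HFD (8.95%) and 1495 lower (13.4%). The median log2 fold change over all genes was 0.09. DESeq2 called 599 genes, of which 22.2% were higher against 40.1% by edgeR, leaving out the endothelial-positive cells gave 1701 of 10975 (15.5%), and thinning every barcode to 3000 UMIs and applying the definition to the thinned counts, which left 13 NCD cells, gave 341. Values in parentheses beside a gene are its log2 fold change, HFD over NCD, with the standard error and the edgeR adjusted p. Over the gene lists, those of interferon response, oxidative phosphorylation and the cell cycle held mostly higher genes in HFD, that of costimulation held mostly lower ones, and that of early response had 13 of 26 genes lower and 1 higher.

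**Figure D3:**
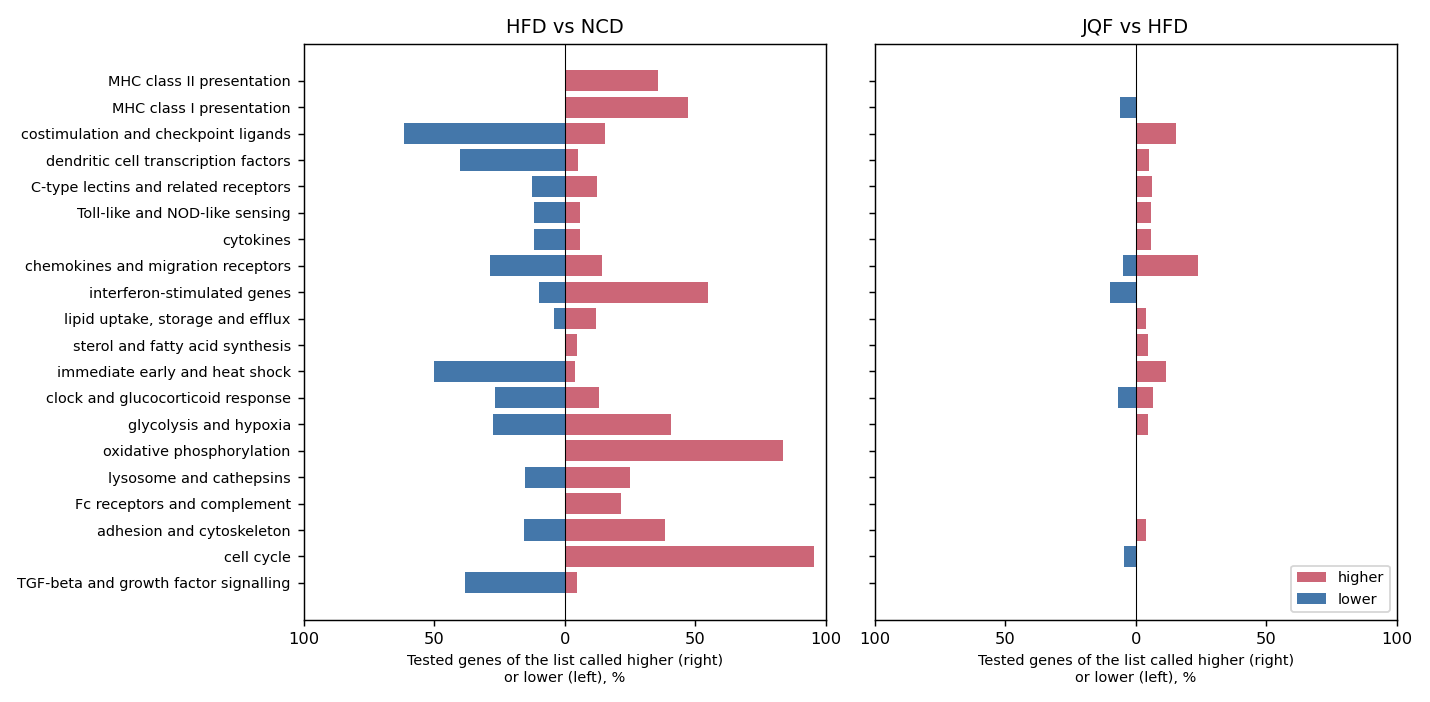
Percent of the tested genes of each pathway list that passed the test in cDC2, higher to the right and lower to the left, for HFD against NCD and JQF against HFD. In HFD against NCD the longest bars are those of the cell cycle (21 of 22 genes higher) and oxidative phosphorylation (41 of 49 higher), and in JQF against HFD no list has more than 5 genes in one direction.

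Costimulatory and checkpoint ligands were lower in HFD in 8 of 13 tested genes and higher in 2, with a median log2 fold change of -1.15. Cd86, which encodes the CD28 ligand CD86 and lies on chr16:36603869-36666081 (GRCm38), was at 3509.9 CPM in NCD replicate 1, 373 and 364 in the HFD replicates and 704 in JQF replicate 1. The NCD library was far above the other libraries, and both HFD libraries were below JQF (-3.34 on the log2 scale, SE 0.15, adjusted p = 3.52e-05). Icam1, which encodes the adhesion ligand of LFA-1, was at 559 CPM in NCD replicate 1, 98.9 and 108 in the HFD replicates and 248 in JQF replicate 1 (-2.52 on the log2 scale, SE 0.17, adjusted p = 7.86e-05). As for Cd86, NCD was highest, JQF next and both HFD libraries lowest. Cd80, the other ligand of CD28, was at 285, 72.5, 93.2 and 100.3 CPM (-1.86 on the log2 scale, SE 0.21, adjusted p = 0.000637), and Cd274, which encodes the checkpoint ligand PD-L1, at 235, 54.97, 51.8 and 74.4 CPM (-2.22 on the log2 scale, SE 0.19, adjusted p = 0.000168). Cd40, Cd83, Havcr2 and Pdcd1lg2 also fell. The 2 genes that rose were Cd48, a ligand of CD244, with a log2 fold change of 1.07, and Lgals9, which encodes galectin-9, with 1.49, which turned to -0.57 after thinning. DESeq2 called 4 of the list's genes lower and 0 higher, where edgeR had 11 at an unadjusted p under 0.05, and with endothelial-positive cells left out 9 were lower and 2 higher. In cDC1 gated by Xcr1 and Flt3, where 19.0% of all 12386 genes were called, 7 of 15 were lower and 2 higher.

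Immediate early and heat shock genes, which respond to stimulation and to handling of cells within minutes, were lower in HFD in 13 of 26 tested genes and higher in 1. Nr4a2, an orphan nuclear receptor, was at 489, 42.96, 62.4 and 78.3 CPM (-3.28 on the log2 scale, SE 0.23, adjusted p = 8.60e-05). Egr1, a zinc finger factor of the same early wave, was at 1462 CPM in NCD replicate 1, 509 and 540.2 in the HFD replicates and 1227 in JQF replicate 1 (-1.56 on the log2 scale, SE 0.15, adjusted p = 0.000343), so the NCD and JQF libraries were both above HFD. Egr2 was at 122, 25.4, 24.3 and 68.3 CPM (-2.38 on the log2 scale, SE 0.22, adjusted p = 0.000278), and Dnajb1, a heat shock co-chaperone, at 451, 116, 110.0 and 153 CPM (-2.08 on the log2 scale, SE 0.17, adjusted p = 0.000152). Hspe1, a mitochondrial chaperonin, was the 1 gene that rose, with a log2 fold change of 0.78. In cDC1 15 of 26 of these genes were lower and 1 higher. The study describes a shared digestion protocol, after which steps to clear impurities and dead cells were chosen by quality control. The part of handling in these levels was not tested.

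Transcription factors of dendritic cells were lower in 8 of 20 genes and higher in 1. Batf was at 226, 56.4, 56.6 and 133 CPM (-2.09 on the log2 scale, SE 0.18, adjusted p = 0.000231), and the NF-kappa B subunits Rel and Relb at 1561, 383, 547 and 577 CPM and at 226, 95.2, 101 and 110.3 CPM (-1.83 on the log2 scale, SE 0.22, adjusted p = 0.000877, and -1.29 on the log2 scale, SE 0.18, adjusted p = 0.00192). Klf4, needed for the cDC2 that drive type 2 responses, was at 1125, 440.3, 601 and 846 CPM (-1.20 on the log2 scale, SE 0.21, adjusted p = 0.00463). Id2, an inhibitor of E proteins, was higher with a log2 fold change of 1.04. Irf4 did not pass, at 52.8, 39.7, 45.9 and 49.8 CPM (-0.38 on the log2 scale, SE 0.27, adjusted p = 0.343), nor did Zbtb46, at 133, 113, 104 and 81.9 CPM (-0.38 on the log2 scale, SE 0.20, adjusted p = 0.205).

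**Figure D4:**
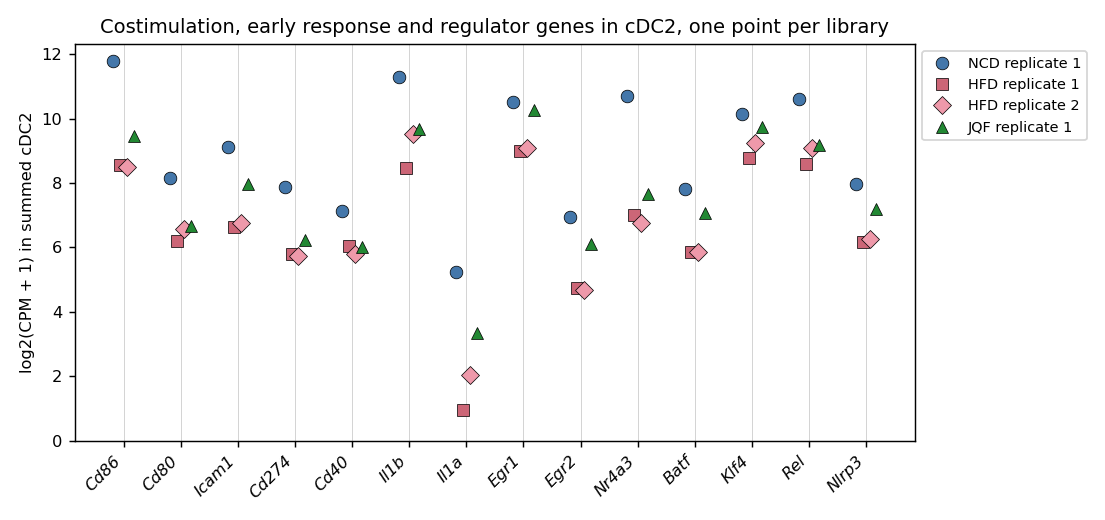
Levels of costimulation, early response and regulator genes in summed cDC2, as log2 of CPM plus 1, with one point per library. NCD replicate 1 lies above both HFD replicates for every gene plotted, and JQF replicate 1 lies above both for every gene plotted except Cd40. The genes were picked from longer lists, so this order follows in part from the choice. Of those not plotted, Cd48, Lgals9, Hspe1 and Id2 were higher in HFD than in NCD, and Zbtb46 was lower in JQF than in both HFD libraries. Median log2 fold changes, JQF over HFD, were 0.10 for the costimulation list, 0.53 for early response and 0.02 for transcription factors.

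Most of the interferon-stimulated genes tested were higher in HFD. Of 31 tested, 17 were higher in HFD and 3 lower, with a median log2 fold change of 1.30, and DESeq2 called 6 higher and 2 lower. Over all genes 8.95% were higher and 13.4% lower, so the lower count did not exceed the share over all genes. The higher genes included the antiviral effectors Rsad2, Ifit1, Ifit2, Ifit3, Isg15 and Oas1a, which type I interferon induces through the ISGF3 complex, while the lower ones were Iigp1, Gbp2 and Gbp5, GTPases that interferon gamma induces strongly. The regions just upstream of the start of several higher genes are shown because they hold matches to the binding motif of that complex, the interferon-stimulated response element. The sequences are from RefSeq promoters (build GRCm38.p6), written 5′ to 3′ on the strand of the gene, 160 bases ending just before its start, and capitals mark matches to GAAANNGAAA on either strand. On the other strand the motif reads TTTCNNTTTC, and overlapping matches run together.
Rsad2 (chr12:26456453-26456612, minus strand): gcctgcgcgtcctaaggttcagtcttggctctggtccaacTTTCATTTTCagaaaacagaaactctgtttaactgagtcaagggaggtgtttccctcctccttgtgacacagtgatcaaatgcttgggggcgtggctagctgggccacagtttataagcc
Ifit1 (chr19:34640729-34640888, plus strand): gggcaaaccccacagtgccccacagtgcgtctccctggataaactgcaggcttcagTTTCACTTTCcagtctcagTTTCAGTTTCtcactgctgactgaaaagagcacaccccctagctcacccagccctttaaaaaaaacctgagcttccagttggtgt
Ifit3 (chr19:34583369-34583528, plus strand): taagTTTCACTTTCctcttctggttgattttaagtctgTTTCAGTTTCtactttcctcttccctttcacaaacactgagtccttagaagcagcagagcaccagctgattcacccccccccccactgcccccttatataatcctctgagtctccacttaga
Isg15 (chr4:156200819-156200978, minus strand): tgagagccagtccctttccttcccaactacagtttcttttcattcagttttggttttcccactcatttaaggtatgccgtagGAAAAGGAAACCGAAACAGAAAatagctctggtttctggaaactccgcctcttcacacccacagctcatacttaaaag
Oas1a (chr5:120907526-120907685, minus strand): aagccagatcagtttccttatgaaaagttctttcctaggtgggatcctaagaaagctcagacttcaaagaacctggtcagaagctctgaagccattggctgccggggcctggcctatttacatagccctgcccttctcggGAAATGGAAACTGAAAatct
Such a match was found within 250 bases upstream in 2.98% of all 32851 promoters of the table, in 13 of the 25 interferon-stimulated genes of the list with an entry, and in 8 of the 14 of those called higher in HFD. A match describes letters in the window and is not a measured binding site.

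Rsad2, which encodes the antiviral enzyme viperin and lies on chr12:26442746-26456452, was at 6.14 CPM in NCD replicate 1, 174 and 141 in the HFD replicates and 11.97 in JQF replicate 1 (4.57 on the log2 scale, SE 0.39, adjusted p = 0.000201). Both HFD libraries were far above NCD and JQF, and a Rsad2 UMI was found in 5.88% of NCD, 22.9% and 30.3% of HFD and 10.1% of JQF cells. Ifit2 was at 33.2 CPM in NCD replicate 1, 158 and 136 in the HFD replicates and 32.7 in JQF replicate 1 (2.05 on the log2 scale, SE 0.26, adjusted p = 0.00125), with NCD and JQF at nearly one level. Ifit1 was at 3.69, 50.8, 80.5 and 24.9 CPM (4.06 on the log2 scale, SE 0.63, adjusted p = 0.00283). Ifit3 was at 2.46, 16.6, 35.99 and 11.6 CPM (3.34 on the log2 scale, SE 0.92, adjusted p = 0.0314), which became 2.61 without HFD replicate 2. Isg15, a ubiquitin-like modifier, was at 17.2, 133, 65.1 and 44.01 CPM (2.41 on the log2 scale, SE 0.56, adjusted p = 0.0164). Irf7, the amplifier of type I interferon transcription, was at 15.97, 50.8, 54.2 and 28.8 CPM (1.63 on the log2 scale, SE 0.33, adjusted p = 0.00969).

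The GTPases went the other way. Iigp1 was at 179 CPM in NCD replicate 1, 0.462 and 6.17 in the HFD replicates and 1.94 in JQF replicate 1 (-5.67 on the log2 scale, SE 0.51, adjusted p = 0.000241), and its log2 fold change was -4.92 without HFD replicate 1 and -8.53 without HFD replicate 2. With endothelial-positive cells left out, Iigp1 was at 61.5 CPM in NCD replicate 1, and its log2 fold change was -4.36. Gbp2 was at 159.7, 24.02, 43.2 and 30.7 CPM (-2.30 on the log2 scale, SE 0.31, adjusted p = 0.00165) and Gbp5 at 134, 13.9, 23.99 and 13.9 CPM (-2.87 on the log2 scale, SE 0.31, adjusted p = 0.00052). Cxcl9, a chemokine that interferon gamma induces, was also lower, at 505, 75.8, 193 and 136 CPM (-1.98 on the log2 scale, SE 0.41, adjusted p = 0.0102), and at -2.85 without HFD replicate 2. In cDC1 10 of the 31 list genes were higher in HFD and 2 lower. The estimated free RNA gave at most 6.79 CPM of Rsad2 in any library.

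**Figure D5:**
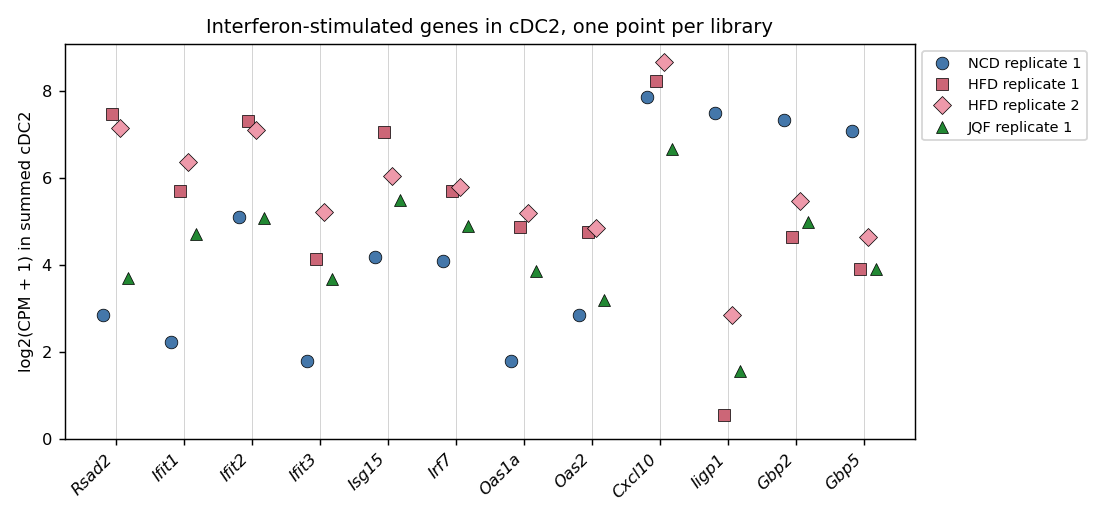
Levels of interferon-stimulated genes in summed cDC2, as log2 of CPM plus 1, with one point per library. For Rsad2 and Ifit2 both HFD libraries lie above NCD and JQF, and for Iigp1, Gbp2 and Gbp5 the NCD library lies above the other libraries.

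Cytokine and chemokine genes differed in a few members. Il1b, which encodes interleukin 1 beta, was at 2523 CPM in NCD replicate 1, 351 and 739 in the HFD replicates and 819 in JQF replicate 1 (-2.29 on the log2 scale, SE 0.34, adjusted p = 0.00245), and without HFD replicate 2 the log2 fold change was -2.96. Il1a was at 36.9, 0.924, 3.08 and 9.06 CPM (-4.16 on the log2 scale, SE 0.59, adjusted p = 0.00191), and at -5.34 without HFD replicate 2. Ifnb1, the gene of interferon beta, was at 1.23, 72.5, 34.96 and 33.3 CPM (5.28 on the log2 scale, SE 1.00, adjusted p = 0.00696). It was detected in 2.94% of NCD, 11.4% and 5.64% of HFD and 4.47% of JQF cells. Of 17 tested cytokines, Ifnb1 was the only one called higher and these interleukins the only ones called lower, where 8.95% of all genes were higher and 13.4% lower. Among 21 chemokines and migration receptors, Ccl22, Ccl9 and Ccl2 were higher and 6 were lower. Ccl22, a ligand of CCR4, was at 6.14, 110.4, 61.01 and 50.5 CPM (3.69 on the log2 scale, SE 0.62, adjusted p = 0.00411). Ccl9, a myeloid chemokine, was at 76.2, 230.1, 328 and 309 CPM (1.79 on the log2 scale, SE 0.29, adjusted p = 0.00343). Cxcl2, a neutrophil chemokine, was at 346, 56.8, 112 and 337 CPM (-2.10 on the log2 scale, SE 0.33, adjusted p = 0.00288), and became -2.72 without HFD replicate 2. Its log2 fold change turned to 7.91 when the definition was applied to counts thinned to 3000 UMIs, which left 13 NCD cells. In cDC2 selected on full counts and then thinned, a Cxcl2 UMI was found in 18.2% of NCD and in 7.19% and 13.3% of HFD cells. Il1r2, the decoy receptor of interleukin 1, was lower, at 920.2, 97.5, 129.9 and 144 CPM (-3.10 on the log2 scale, SE 0.20, adjusted p = 7.30e-05).

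Of 14 MHC class II presentation genes, 5 were higher in HFD and none lower, with a median log2 fold change of 0.44. Cd74, the invariant chain, was at 10183 CPM in NCD replicate 1, 15723 and 16035 in the HFD replicates and 17573 in JQF replicate 1 (0.55 on the log2 scale, SE 0.12, adjusted p = 0.011), with JQF highest and NCD lowest. H2-Ab1 was at 5609, 8548, 8258 and 8181 CPM (0.50 on the log2 scale, SE 0.13, adjusted p = 0.0238), and Ifi30, a lysosomal thiol reductase that prepares antigen, at 638, 1437, 1419.7 and 1347 CPM (1.08 on the log2 scale, SE 0.16, adjusted p = 0.00256). With endothelial-positive cells left out only 1 of the 14 class II genes was called. Of 17 MHC class I presentation genes, 8 were higher and none lower, among them the immunoproteasome subunits Psmb8 (0.91 on the log2 scale, SE 0.18, adjusted p = 0.00807) and Psmb10 (1.10 on the log2 scale, SE 0.22, adjusted p = 0.00881). DESeq2 called 0 of these 17 and 1 of the 14 class II genes, where edgeR had 13 and 8 at an unadjusted p under 0.05, and 4 of the 17 were called without endothelial-positive cells.

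Among genes of energy metabolism, those of oxidative phosphorylation were mostly higher in HFD. Of 49 in the list, 41 were higher and none lower, with a median log2 fold change of 1.03 against 0.09 over all genes. Atp5k, a subunit of ATP synthase, was at 29.5, 170.0, 166 and 145 CPM (2.42 on the log2 scale, SE 0.25, adjusted p = 0.000449), and Cox7c, of cytochrome c oxidase, at 184, 519, 492 and 465 CPM (1.37 on the log2 scale, SE 0.19, adjusted p = 0.00164). DESeq2 called 14 of the 49. In cDC1 34 of 49 were higher, and the ribosomal protein share of UMIs was also lower in the NCD cDC2, as given above. Of 22 glycolysis and hypoxia genes, 9 were higher and 6 lower, and DESeq2 called 2 higher and 3 lower. Eno1, the glycolytic enolase, was at 22.1, 174, 175 and 141 CPM (2.89 on the log2 scale, SE 0.27, adjusted p = 0.000274), while Vegfa, which hypoxia induces, was at 89.7, 8.78, 6.51 and 11.3 CPM (-3.65 on the log2 scale, SE 0.29, adjusted p = 0.000152). Plin2, a coat protein of lipid droplets, was at 72.5, 249, 228 and 191 CPM (1.63 on the log2 scale, SE 0.21, adjusted p = 0.00137), one of the 3 lipid handling genes of 25 that were called higher. That count is near the 8.95% higher over all genes.

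Cell cycle genes were higher in HFD in 21 of 22, with a median log2 fold change of 2.95, or 2.75 with genes at 0 set to a floor of 3 UMIs. DESeq2 called 8 of the 22 higher, and in cDC1 15 of 22 were higher with a median of 1.12. Birc5, Pclaf, Cenpf and Nusap1 had no UMI in the 34 NCD cells. Set against a floor of 3 UMIs for the NCD group, they were 24.8-fold, 21.4-fold, 15.6-fold and 14.9-fold higher in HFD. That floor counts UMIs and not cells, so these folds are no lower bounds over cells. Top2a, the topoisomerase of dividing cells, was at 7.37, 123, 120.0 and 92.9 CPM (3.95 on the log2 scale, SE 0.35, adjusted p = 0.000231). Stmn1, a microtubule regulator, was at 4.91, 237, 175 and 141 CPM (5.28 on the log2 scale, SE 0.44, adjusted p = 0.000168). Birc5 was found in 10.7% and 15.4% of HFD cells, and its 3 highest cells held 39.3% and 25.6% of its UMIs. Applying the definition after thinning to 3000 UMIs turned Top2a to -0.69, Stmn1 to -0.69 and Mki67 to -0.95, with 13 NCD cells.

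Of the 8 monocyte markers, Ly6c2, Ms4a4c and Plac8 were called higher, and Ly6c2 was at 1.23, 30.95, 65.8 and 46.6 CPM (5.18 on the log2 scale, SE 1.06, adjusted p = 0.00941), which became 4.47 without HFD replicate 2. The clock and glucocorticoid response list had 2 of 15 genes higher and 4 lower, with a median log2 fold change of -0.93. DESeq2 called 2 higher and 1 lower, and in cDC1 2 of 17 were higher and 1 lower, with a median of -0.22. The higher genes were Fkbp5 and Ddit4, which glucocorticoids induce, at 31.9, 328, 247 and 179 CPM (3.07 on the log2 scale, SE 0.30, adjusted p = 0.000303) and at 18.4, 167, 151 and 59.2 CPM (3.01 on the log2 scale, SE 0.29, adjusted p = 0.000287). Sgk1, a kinase that glucocorticoids also induce, was lower at 193, 63.3, 79.9 and 49.5 CPM (-1.51 on the log2 scale, SE 0.22, adjusted p = 0.002), as were the clock genes Per1, Clock and Nr1d2, with log2 fold changes of -0.93, -1.08 and -1.78. S100a4 and S100a6, small calcium-binding proteins, were at 458, 2445, 2164 and 1893 CPM and at 489, 1518, 1456 and 1434 CPM (2.24 on the log2 scale, SE 0.18, adjusted p = 0.00014, and 1.52 on the log2 scale, SE 0.17, adjusted p = 0.000605). Of 16 lectins, 2 were higher and 2 lower, near the 8.95% higher and 13.4% lower over all genes, so nothing is read from the list as a whole. Clec4b1 was at 27.03, 91.01, 90.8 and 125 CPM (1.66 on the log2 scale, SE 0.27, adjusted p = 0.00339), which turned to -0.35 after thinning, and Ly75, which encodes DEC-205, at 46.7, 6.47, 3.77 and 6.15 CPM (-3.30 on the log2 scale, SE 0.44, adjusted p = 0.00144). The neutrophil genes S100a8 and S100a9 summed to 0 CPM in NCD, 210 and 97.3 CPM in HFD and 9.71 CPM in JQF, and the 3 highest cells of each HFD library held 99.0% and 90.8% of the S100a8 UMIs.

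The 12 largest falls in HFD were led by genes of sinusoidal endothelial cells. Cdh13, Car8, Prex2, Dlc1, Gpihbp1, Ptprb, Ehd3, Sema6a, Cavin2, Stab2, Rapgef5 and Meis2 each stood at 62.7 to 323 CPM in NCD and at most 6.17 CPM in HFD. HFD replicate 1 held 0 to 5 UMIs of each, and without it the log2 fold changes went from -7.73 to -6.99 for Cdh13 and from -5.85 to -5.14 for Stab2. Without HFD replicate 2 that of Stab2 was -8.28. Gpihbp1, which anchors lipoprotein lipase to capillaries, was at 111, 0, 1.71 and 0.971 CPM, and Stab2, the hyaluronan scavenger receptor of liver sinusoids, at 151, 0.462, 4.46 and 0 CPM. Of the 8 endothelial markers, none was at 0 in every library and their sum was 1424 CPM in NCD, 187 and 230 CPM in HFD and 162 CPM in JQF. With the 6 NCD and 6 HFD cells of more than 2 endothelial UMIs left out, Cdh13 was at a log2 fold change of 0 and Rapgef5 at 0.18, and of the 8 markers 6 could still be tested and 1, Dnase1l3, was called lower, against 7 with all cells. The limit itself was set on 5 of the 8.

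The same naming rule applied without those cells, a choice made after the values were seen, gave falls in other genes, with log2 fold changes from -5.35 to -3.77 in that fit. The values that follow are over all cells. Slc15a2, a peptide transporter, was at 193 CPM in NCD replicate 1, 6.93 and 15.8 in the HFD replicates and 34.9 in JQF replicate 1 (-4.11 on the log2 scale, SE 0.34, adjusted p = 0.000166), and without HFD replicate 2 it was at -4.90. Nr4a3, an orphan nuclear receptor of the early response that also acts in dendritic cell migration, was at 1672 CPM in NCD replicate 1, 128 and 108 in the HFD replicates and 201 in JQF replicate 1 (-3.92 on the log2 scale, SE 0.17, adjusted p = 3.52e-05). Jmy, Adam23 and Mreg were at 236, 15.2, 14.1 and 26.9 CPM, at 264, 21.7, 14.1 and 41.4 CPM and at 461, 37.9, 52.1 and 73.8 CPM. In these 5 genes the NCD library was above the others and JQF was above both HFD libraries, which did not hold for Iigp1, another of the 12 genes the rule gave. The rule itself required NCD above both HFD libraries. It also picked genes low in HFD, the libraries that JQF is set against, so this order is a description only. The TGF-beta and growth factor list had 8 of 21 genes lower and 1 higher, with Smad3, a signal transducer of TGF-beta, at 101, 28.2, 22.96 and 15.5 CPM (-2.07 on the log2 scale, SE 0.25, adjusted p = 0.000892) and Kit, the stem cell factor receptor, at 139, 49.9, 43.9 and 33.01 CPM (-1.66 on the log2 scale, SE 0.21, adjusted p = 0.00123). Applying the definition to cells thinned to 3000 UMIs turned Kit to 0.64.

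The second comparison asked how the treated mouse differed from the untreated HFD mice. With the same fit, 188 of 11175 genes passed (1.68%), 167 higher in JQF (1.49%) and 21 lower (0.188%). The higher share of 88.8% became 70.4% of 287 genes when only library totals were used for scaling. DESeq2 called 28 genes. With C1q genes required at 0, which kept 117, 103 and 150 HFD and JQF cells, 2 genes were called, Igkc and Dmbt1. Leaving out epithelial-positive cells gave 75 and leaving out endothelial-positive cells 105 of 10975 (0.957%). The HFD libraries serve as reference here as they did against NCD, so values of the comparisons are set side by side only. Values in parentheses are now JQF over HFD.

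Interferon-stimulated genes were lower in JQF in 3 of 31 and higher in none, with a median log2 fold change of -0.82 against -0.01 over all genes. Rsad2 stood at 11.97 CPM in JQF replicate 1 against 174 and 141 CPM in HFD (-3.59 on the log2 scale, SE 0.26, adjusted p = 0.000438). Ifit2 stood at 32.7 CPM against 158 and 136 CPM (-2.05 on the log2 scale, SE 0.21, adjusted p = 0.00318), and Oas2, a sensor of double-stranded RNA, at 8.09 CPM against 25.9 and 27.8 CPM (-1.61 on the log2 scale, SE 0.31, adjusted p = 0.0462). JQF was below both HFD libraries in each. For all 188 called genes (100%) the HFD libraries were either both above or both below JQF, so this order adds nothing to the calls. Cxcl10, the CXCR3 ligand, was at 100.0 CPM against 296 and 405 CPM (-1.70 on the log2 scale, SE 0.24, adjusted p = 0.0118). Ifi27l2a, another interferon-induced gene that is not in the list, was at 81.1, 648, 613 and 276 CPM over the libraries (-1.07 on the log2 scale, SE 0.17, adjusted p = 0.0201). Ifit1 did not pass (-1.29 on the log2 scale, SE 0.32, adjusted p = 0.11). In cDC1, where 15 of 12386 genes were called in all (0.121%), the median of the list was -0.31. A set of Rsad2, Ifit1, Ifit2, Ifit3 and Isg15 was detected in 41.0% and 40.5% of thinned HFD cDC2 and in 21.5% (15.7 to 28.3) of JQF cells, against 12.1% in NCD. The T cells of these libraries held that set in 28.8% to 49.97% of cells, so it was also found outside cDC2.

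Costimulation was higher in JQF in 2 of 13 genes. Cd86 was at 704 CPM against 373 and 364 CPM (1.05 on the log2 scale, SE 0.15, adjusted p = 0.0118), and Icam1 at 248 CPM against 98.9 and 108 CPM (1.38 on the log2 scale, SE 0.17, adjusted p = 0.00643). JQF lay between HFD and NCD for both. Cd80 (0.38 on the log2 scale, SE 0.21, adjusted p = 0.493) and Cd274 (0.60 on the log2 scale, SE 0.18, adjusted p = 0.21) did not pass. The early genes Ier3, Egr1 and Egr2 were higher in JQF, 3 of 26 tested: Ier3, a stress-induced survival gene, was at 141, 58.2, 39.1 and 205 CPM (2.21 on the log2 scale, SE 0.22, adjusted p = 0.00242), Egr1 had a log2 fold change of 1.34 and Egr2 of 1.57. Batf was the 1 transcription factor of 20 called, at 133 CPM against 56.4 and 56.6 CPM (1.35 on the log2 scale, SE 0.17, adjusted p = 0.00835). Nlrp3, the inflammasome sensor, was at 251, 71.6, 75.4 and 147 CPM (1.11 on the log2 scale, SE 0.17, adjusted p = 0.0176), the 1 gene called of 17 in the Toll-like and NOD-like sensing list. By DESeq2 0 of the 20 transcription factors and 0 of these 17 genes were called.

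Chemokine genes were higher in JQF in several members. Of 21 chemokines and migration receptors, 5 were higher and 1 lower, the lower one being Cxcl10. With Ccr2 left out of the list, DESeq2 called 3 of 20 higher and 1 lower, and without endothelial-positive cells 2 of 20 were higher and 0 lower. Ccl17, a ligand of CCR4 that cDC2 release, was at 28.3 CPM in NCD replicate 1, 26.8 and 12.7 in the HFD replicates and 154 in JQF replicate 1 (3.12 on the log2 scale, SE 0.31, adjusted p = 0.00229), and its 3 highest JQF cells held 60.7% of its UMIs. Ccl7, a monocyte chemokine, was at 40.5, 3.23, 3.08 and 43.7 CPM (3.89 on the log2 scale, SE 0.29, adjusted p = 0.000521), with 96.3% of its JQF UMIs in 3 cells. Cxcl2 was at 337 CPM in JQF against 56.8 and 112 CPM (2.09 on the log2 scale, SE 0.31, adjusted p = 0.014), and became 2.70 without HFD replicate 2. Il10, the anti-inflammatory cytokine, was at 1.23, 1.39, 0.343 and 13.3 CPM (4.08 on the log2 scale, SE 0.77, adjusted p = 0.0443), at 5.16 without HFD replicate 1 and 3.34 without HFD replicate 2, from 41 UMIs in JQF and 3 and 1 in HFD. It was the 1 gene called of 17 in the cytokine list. By DESeq2 and without endothelial-positive cells 0 of the 17 were called, and without epithelial-positive cells 1 of 16. Mgl2 was at 111 CPM in NCD replicate 1, 72.5 and 100.4 in the HFD replicates and 208 in JQF replicate 1 (1.37 on the log2 scale, SE 0.21, adjusted p = 0.0176), and of 16 lectin genes tested it was the only one called. It was spread over more cells, with 21.3% of its JQF UMIs in the 3 highest. DESeq2 called 0 of the 16 lectin genes. Without endothelial-positive cells 0 of 17 were called, and without epithelial-positive cells 1 of 17.

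The metallothionein genes Mt1 and Mt2 rose in JQF. Mt1, a metal-binding protein, was at 284, 112, 92.2 and 397 CPM (2.08 on the log2 scale, SE 0.17, adjusted p = 0.000828), and Mt2 at 27.03, 6.47, 5.14 and 53.4 CPM (3.32 on the log2 scale, SE 0.26, adjusted p = 0.000631). Irs2, an adaptor of insulin receptor signalling, was at 183, 29.6, 19.9 and 84.5 CPM (1.91 on the log2 scale, SE 0.24, adjusted p = 0.00659), so NCD and JQF were both above HFD. Fdps, of cholesterol synthesis, was at 6.14, 31.4, 23.99 and 66.7 CPM (1.40 on the log2 scale, SE 0.23, adjusted p = 0.0234), the 1 gene called of 21 in the sterol list. Cd24a, a glycoprotein of cDC and progenitors, was at 19.7, 14.3, 18.2 and 58.9 CPM (1.96 on the log2 scale, SE 0.24, adjusted p = 0.00657). It was the 1 gene called of 26 in the adhesion and cytoskeleton list. DESeq2 called 0 of that list, and 0 were called without epithelial-positive cells. Hk2, which starts glycolysis, was at 217, 96.1, 77.1 and 156 CPM (0.97 on the log2 scale, SE 0.19, adjusted p = 0.0447), the 1 gene called of 22 in the glycolysis and hypoxia list. DESeq2 called 0 in the sterol and glycolysis lists, where edgeR had 7 and 4 at an unadjusted p under 0.05. By edgeR and by DESeq2 0 of the 14 class II genes and 0 of the 49 oxidative phosphorylation genes were called, with 3 and 0 of them at an unadjusted edgeR p under 0.05.

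Several of the largest rises in JQF were in epithelial and hepatocyte genes held by few cells. Dmbt1, a secreted glycoprotein of biliary and intestinal epithelium, was at 0, 0, 1.37 and 350.5 CPM (8.82 on the log2 scale, SE 0.38, adjusted p = 5.97e-05), and 98.4% of its 1083 JQF UMIs lay in 3 cells. Clu, which encodes clusterin, was at 6.14, 6.47, 1.37 and 248 CPM, with 97.0% of its JQF UMIs in 3 cells, and Ttr, the hepatocyte thyroxine carrier transthyretin, at 23.3, 3.70, 10.6 and 83.5 CPM, with 79.1%. Of the 6 epithelial markers none was at 0 in every library and their sum was 79.9 CPM in NCD, 69.8 and 89.5 CPM in HFD and 238 CPM in JQF, with 3 called higher. Without HFD replicate 1 the log2 fold change of Dmbt1 was 8.04 and that of Clu 7.54, and without HFD replicate 2 that of Clu was 5.38 and that of Ttr 4.61. HFD replicate 1 held no Dmbt1 UMI, so no value is given against it alone. The calls of Dmbt1, Clu and Ttr were lost when epithelial-positive cells were left out, whereas over the 9 hepatocyte markers the calls then went from 1 to 2 and the median log2 fold change from 1.42 to 1.71.

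The plasma cell genes Igkc and Jchain were also higher in JQF. The 6 plasma cell markers summed to 77.4 CPM in NCD, 85.5 and 117 CPM in HFD and 596 CPM in JQF, and 2 of the 4 tested were called, with a median log2 fold change of 3.28. Igkc, the kappa light chain constant region, was at 0, 6.01, 24.7 and 473 CPM (4.97 on the log2 scale, SE 0.42, adjusted p = 0.000858), at 4.36 without HFD replicate 1 and 6.42 without HFD replicate 2, and 72.7% of its 1463 JQF UMIs lay in 3 cells. Jchain, which joins polymeric antibodies, was at 1.23, 0, 2.06 and 38.5 CPM (5.09 on the log2 scale, SE 0.60, adjusted p = 0.00554) and 4.29 without HFD replicate 1, which held no UMI of it, with 74.8% of its 119 JQF UMIs in 3 cells. Iglv1 was at 0 in every library, and Mzb1 had 4 UMIs in JQF and none in the others. DESeq2 called 0 of the 4, where edgeR had 2 at an unadjusted p under 0.05, and the estimated free RNA gave 127 CPM of Igkc in JQF.

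Of the 21 genes lower in JQF, 3 were in the interferon list. Ddit4, a stress-induced inhibitor of mTOR, was at 59.2 CPM in JQF against 167 and 151 CPM in HFD (-1.30 on the log2 scale, SE 0.19, adjusted p = 0.0135). Zfp366, a zinc finger protein of dendritic cells known as DC-SCRIPT, was at 122, 83.6, 85.3 and 33.3 CPM (-1.22 on the log2 scale, SE 0.20, adjusted p = 0.0239), and Plac8 at 231, 805, 982 and 417 CPM (-0.98 on the log2 scale, SE 0.19, adjusted p = 0.0472). H2-Q7, a class Ib gene, was at 74.9, 97.9, 106 and 46.6 CPM (-1.02 on the log2 scale, SE 0.20, adjusted p = 0.0471). Hist1h2ae was at 80.3 CPM against 170 and 175 CPM (-0.99 on the log2 scale, SE 0.18, adjusted p = 0.0382) and turned to 0.14 after thinning, and Cdk1 was the 1 cell cycle gene of 22 called, also lower. Of the 5 neutrophil markers tested, S100a8 and S100a9 were lower by both edgeR and DESeq2, at 0, 90.5, 48.7 and 2.91 CPM (-4.42 on the log2 scale, SE 0.52, adjusted p = 0.00554) and at 0, 119.7, 48.7 and 6.80 CPM (-3.48 on the log2 scale, SE 0.59, adjusted p = 0.0259), and S100a9 was at -2.73 without HFD replicate 1. Neither was called when epithelial-positive cells were left out, and S100a9 turned to 3.00 after thinning and to 0.40 without doublets. The monocyte gene Ly6c2 did not pass, at 46.6 CPM against 31.0 and 65.8 CPM (0.03 on the log2 scale, SE 0.38, adjusted p = 0.986).

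The response of cDC2 was compared with that of cDC1 in one model with the library as a block. As first gated by Xcr1 and Clec9a, the cDC1 class held 832 NCD barcodes, and leaving out endothelial-positive barcodes took all gated NCD dendritic cells from 903 to 123, so cDC1 were gated by Xcr1 and Flt3 without endothelial-positive barcodes, a choice made after the values were seen, which left 50 NCD cells. The endothelial-positive barcodes were left out of cDC2 as well, which left 28 NCD cells. With these choices, 240 of 11848 genes (2.03%) differed in their HFD to NCD change, 164 more positive in cDC2 (1.38%) and 76 more negative (0.641%). With the first cDC1 gate and all cDC2, that is with both choices changed at once, 2710 of 14573 genes differed (18.6%), 1176 more positive (8.07%) and 1534 more negative (10.5%). Icam1 fell more in cDC2, at 605 CPM in NCD and 98.7 and 108 CPM in HFD without endothelial-positive cells, against 189.7 CPM and 131 and 121 CPM in cDC1 (log2 difference -1.89, SE 0.21, adjusted p = 0.00232 by edgeR). Dnase1l3, a secreted nuclease that is also one of the 8 endothelial markers, was at 240 CPM in NCD and 37.7 and 29.1 CPM in HFD cDC2, and at 197 CPM and 169.6 and 189.5 CPM in cDC1 (log2 difference -2.67, SE 0.27, adjusted p = 0.00143 by edgeR). Cd14, the lipopolysaccharide co-receptor, stood in cDC2 at 9.45 CPM in NCD and 36.3 and 54.2 CPM in HFD, and in cDC1 at 55.1 CPM in NCD and 2.92 and 5.93 CPM in HFD (log2 difference 5.95, SE 0.46, adjusted p = 0.000292 by edgeR).

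For JQF against HFD, 24 of 11848 genes differed between cDC2 and cDC1 (0.203%), 16 more positive in cDC2 (0.135%) and 8 more negative (0.0675%). With the first cDC1 gate and all cDC2, 69 differed (0.473%), 64 more positive (0.439%) and 5 more negative (0.0343%). Cxcl10 fell in cDC2 from 284 and 419 CPM to 100.0 CPM, and in cDC1 it went from 84.8 and 61.2 CPM to 122 CPM (log2 difference -2.52, SE 0.34, adjusted p = 0.0209 by edgeR). Against Ly6c2 monocytes, of which NCD held only 13 cells and was left out, 66 of 11820 genes differed (0.558%), 59 more positive in cDC2 (0.499%) and 7 more negative (0.0592%). Rsad2 fell further in cDC2 than in monocytes, which stood at 186 and 187 CPM in HFD and 55.6 CPM in JQF (log2 difference -1.97, SE 0.29, adjusted p = 0.0307 by edgeR). Cxcl10 stood at 732, 746 and 601 CPM in the monocytes of the HFD replicates and JQF (log2 difference -1.51, SE 0.22, adjusted p = 0.0221 by edgeR).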

How the data were processed

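Digested mouse liver was measured in 4 libraries made with the 10x Genomics droplet kit. Per the labels and the study's methods, the authors aligned reads to mm10 with Cell Ranger 6.0.1 and used Seurat 4.0.3; the deposited matrices hold raw UMI counts. The headers of the matrices used name Cell Ranger 7.0.0 instead, and whether reads in introns were counted is not given in the sources used here. Members, gene lists and tests were chosen with earlier results of these data known. The cell filter (at least 500 detected genes, mitochondrial share up to 20%) left 5975 to 10259 barcodes per library and the definition was applied in Python 3.11.15. UMI counts were summed per library and tested with edgeR 4.0.16 (TMM, filterByExpr, quasi-likelihood, all 4 libraries, 1 residual degree of freedom, Benjamini-Hochberg over all genes). NCD and JQF have 1 library each, so p-values rest on the spread between the HFD libraries. Values without an HFD library used the same scaling and prior count with the dispersions of the full fit, and no test. Genes were named by size of change among those passing, with at least 50 CPM and detection in 10% of cells of each library of the higher group (12 each way), and by up to 4 genes per list. Scrublet (scanpy 1.11.5), at its own threshold, marked 0.0111% to 2.92% of barcodes, so doublets were removed only as an alternative. Coordinates are from GENCODE M21 (GRCm38). Scripts were tested on simulated data. A few genes of the lists are counted but not reported by name here.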

Additional observations from a re-analysis of the deposited data

Results flagged for a closer look

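These genes were singled out because their change between groups differed between cDC2 and another class in a test of the difference itself (edgeR quasi-likelihood, library as block). The values are log2 differences, the change in cDC2 minus the change in the other class, for the genes with the smallest p in each direction.

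For HFD against NCD, set against cDC1 gated by Xcr1 and Flt3, the more positive changes in cDC2 were S100a9 13.52, Hist1h2ae 6.15, Cd14 5.95, Parp8 2.16 and Elovl5 1.95, and the more negative ones Mreg -7.46, Dnase1l3 -2.67, Icam1 -1.89, Arl5c -2.53 and Ube2e3 -1.85, with adjusted p from 0.000124 to 0.00394 by edgeR. S100a9, a neutrophil gene, had no UMI in the NCD cDC2 and stood at 234 CPM in the NCD cDC1, against 120.6 and 49.98 CPM in HFD cDC2 and 76.5 and 33.2 CPM in HFD cDC1. Its fitted difference therefore depends on the prior count and is no bound. Mreg, a melanosome transport gene, went from 591 CPM in NCD to 38.2 and 53.9 CPM in HFD cDC2, whereas in cDC1 it stood at 2.12 CPM in NCD, from 4 UMIs, and 38.5 and 24.6 CPM in HFD.

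For JQF against HFD, set against the same cDC1, the more positive changes were Tff2 6.46, Mup20 4.80, Dmbt1 6.78, Hbegf 5.46 and 9530059O14Rik 3.65, and the more negative ones Cxcl10 -2.52, Pi16 -4.75, Ect2 -1.99, Marcksl1 -1.32 and S100a4 -0.94, with adjusted p from 0.00132 to 0.0375 by edgeR. Tff2 and Dmbt1 are epithelial genes and Mup20 is a hepatocyte gene, and Dmbt1 held 98.4% of its JQF cDC2 UMIs in 3 cells. S100a4 was at 2455 and 2194 CPM in HFD and 1893 CPM in JQF cDC2, and at 66.1, 60.01 and 101 CPM in cDC1.

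For JQF against HFD, set against Ly6c2 monocytes, the more positive changes were Clu 9.12, Tff2 11.25, Krt8 8.18, Tm4sf4 11.16 and Hbegf 6.70, and the more negative ones Il4i1 -2.29, Cxcl10 -1.51, Rsad2 -1.97, Ifih1 -1.27 and Entpd1 -1.29, with adjusted p from 8.44e-06 to 0.032 by edgeR. Krt8, a keratin of epithelial cells, stood at 1.85 and 4.11 CPM in HFD and 51.1 CPM in JQF cDC2, and at 68.8, 59.4 and 3.47 CPM in the monocytes. Ifih1, the RNA sensor MDA5, stood at 491 and 282 CPM in HFD and 193 CPM in JQF cDC2, and at 251, 153 and 242 CPM in the monocytes. Epithelial RNA moved with several of these genes, and its part in them was not tested.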

How the results depend on the processing

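The 34 NCD cells, the single NCD and JQF libraries and 1 residual degree of freedom limit every comparison. Of the 2495 genes that differed between HFD and NCD, DESeq2 called 599, cells thinned to 3000 UMIs gave 341 and C1q at 0 gave 1609. For JQF against HFD, where 188 genes were called, RLE scaling gave 325, library totals 287, no gene filter 634, DESeq2 28, thinning 44, C1q at 0 gave 2, leaving out endothelial-positive cells 105 and epithelial-positive cells 75. The causes were not tested. Over lists for HFD against NCD, DESeq2 called 5 of 20 transcription factors lower instead of 8, 4 of 20 growth factor genes instead of 8 of 21, and 2 of 20 chemokine genes instead of 6 of 21. The DESeq2 counts left out Csf1r and Ccr2, which the monocyte gate used, so the growth factor and chemokine gene sets differ between the tools. The share of calls that were higher moved from 40.1% to 22.2% under DESeq2 for HFD against NCD, and from 88.8% to 70.4% under library totals for JQF against HFD.

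Against cDC1 as first gated, the 2710 genes for HFD against NCD became 838 with DESeq2 and 240 with the revised gate, which also left endothelial-positive cells out of cDC2. The 69 for JQF against HFD became 4 with library totals, 137 with no gene filter, 4 with DESeq2, 8 with thinning, 1 without doublets and 24 with the revised gate. With that gate, the 240 became 135 (RLE), 393 (library totals), 582 (no gene filter) and 28 (DESeq2), and the 24 became 6, 99, 281 and 3. Against monocytes the 66 became 258 with library totals, 2 with no gene filter, 33 with DESeq2, 11 with thinning and 11 without doublets.

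The log2 ratio of cDC2 shares, HFD over NCD, was 1.83. It was 2.42 with thinning, 1.97 with Cd209a at least 1 UMI, 1.48 with C1q at 0, 0.54 without endothelial-positive and 2.09 without epithelial-positive cells, 2.38 among gated dendritic cells and 0.68 among Ptprc barcodes. For JQF over HFD it was 0.05, with 0.18 after thinning and 0.33 with C1q at 0. Leaving out each HFD replicate gave 1.74 to 1.92 and -0.04 to 0.14, as values with no test, since no residual degree of freedom was left.

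Some genes changed direction or went to 0.00. For HFD against NCD, thinning turned Hist1h2ae to -0.020, Stmn1 to -0.69, Top2a to -0.69, Mki67 to -0.95, Clec4b1 to -0.35, Lgals9 to -0.57, Cxcl2 to 7.91, Hk2 to 1.15, Kit to 0.64, Rtn1 to 0.14 and Ccl7 to 0.00. In that setting the definition was applied to the thinned counts, which left 13 NCD cells. Leaving out endothelial-positive cells gave 0.00 for Cdh13, 0.18 for Rapgef5, 0.17 for Mrc1 and 0.83 for Ccl7. Ccl7 was at 1.25 with Cd209a at least 3 UMIs and 1.12 without epithelial-positive cells, which put Timd4 at 0.12. For JQF against HFD, thinning turned Hist1h2ae to 0.14 and S100a9 to 3.00, and leaving out doublets put S100a9 at 0.40. No paired analysis was possible because the groups share only replicate number 1. The alternatives without endothelial-positive or epithelial-positive cells and the revised cDC1 gate were chosen after seeing the data.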
